A study of Mus musculus with 536 samples.

Results

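Blood transcript levels were compared between irradiated and unirradiated mice that had all received lipopolysaccharide (LPS), a component of the outer wall of gram-negative bacteria. The mice were chosen by their sample titles, as those of a small treatment set of 50 mice that were labelled LPS and 6 hr. They numbered 17 of the 536 arrays of the series, with 6 mice at 0 cGy (mice 1, 3, 6, 7, 8 and 9), 5 at 150 cGy (mice 3, 4, 6, 8 and 9) and 6 at 600 cGy (mice 1 to 6). All were C57BL/6 mice. The protocol gives ages of 10 to 12 weeks and animals of either sex for the series, and the sex of these mice is labelled unknown. Irradiated mice had received a single total body dose from a cesium source at 480 cGy per min. Blood was drawn once, from the heart at death, 6 hr after irradiation, so each array is a different mouse and no mouse was followed over time. RNA from PAXgene-fixed whole blood was depleted of globin transcripts and hybridised to Affymetrix Mouse 430A 2.0 arrays. The dose of LPS and its timing relative to irradiation are not given in the sources used here. The comparison asks how blood of mice given LPS differed after 150 or 600 cGy from blood of mice given LPS alone, and whether the difference was the same as in the untreated mice (6, 6 and 5 at 0, 150 and 600 cGy) and the mice given GCSF, the growth factor that expands the granulocyte lineage (6, 5 and 5 mice), of the same set.

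LPS is sensed by Toll-like receptor 4 with its partners CD14 and MD-2, which signal through MyD88 to NF-kB, for inflammatory cytokines, and through TRIF to interferon regulatory factors, for type I interferon and the genes it induces. In the hours after LPS, neutrophils are released from marrow while lymphocytes leave the blood. Ionizing radiation breaks DNA and stabilises the transcription factor p53, which induces genes of cell cycle arrest, DNA repair and apoptosis, and B lymphocytes and cycling precursors are among the blood cells most sensitive to it. In whole blood, fewer cells of a type and less RNA per cell cannot be told apart.

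Levels are log2 signals, so a difference of 1 is a doubling, and each difference is given with its standard error and a limma p-value adjusted over all 12393 genes measured. A gene is said to have risen or fallen where that adjusted p was under 0.05. Many genes named below were chosen as the largest called differences whose groups did not overlap. For those genes the lack of overlap was fixed by the choice and adds no support. Transcripts that define blood were high in each of the 17 arrays, with Alas2, the heme synthesis enzyme of red cell precursors, between 14.28 and 14.46, the neutrophil calprotectin gene S100a8 at 13.31 or more and the platelet chemokine Pf4 at 12.64 or more. Xist stood between 10.41 and 11.50 and the Y-linked Eif2s3y between 2.99 and 3.64 in all 17 mice. Mice of a group carry different numbers and no other label says how they were housed or processed. The p-values measure the spread between mice within the 9 groups, shared over all 50 mice of the small set, and not that of these 17 alone.

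Some mice stood apart. Among the LPS mice, mouse 8 at 0 cGy had the highest levels in its group of the T cell gene Thy1 (10.12, median 7.30), of Rag1 (9.90, median 6.76), of Myb (10.10, median 8.23) and of the interferon-induced Mx1 (8.88, median 7.10). The liver transcript Alb was 5.24 to 5.95 in the 6 mice at 0 cGy, but reached 11.93 and 10.68 in mice 3 and 6 at 150 cGy and 12.33 in mouse 2 at 600 cGy. None of 21 hepatocyte genes was called by limma in either dose comparison, with 3 and 4 at an unadjusted p under 0.05, and their mean level relative to the 0 cGy mean reached 3.95 at 150 cGy and 4.70 at 600 cGy. Among the untreated mice that serve as the comparison group, mouse 10 at 0 cGy went against its label. Its Cdkn1a was 10.47, against 7.03 to 7.47 in the other 5 untreated mice at 0 cGy and 10.15 to 10.97 at 600 cGy. Its Phlda3 was 9.27 (6.46 to 7.41 in the other 5), its Cd79a 7.23 (10.82 to 11.74) and its Lcn2 12.04 (7.19 to 8.69). Over all genes the library labelled untreated 0 cGy mouse 10 had a correlation of 0.953 with the mean of the other 0 cGy mice and 0.984 and 0.981 with the means at 150 and 600 cGy, whereas the other 5 had their highest correlation, 0.978 to 0.990, with the 0 cGy mean. Some results that rest on it are given with and without it, and the others with it only. Irradiation of untreated mice changed 475 genes at 150 cGy and 914 at 600 cGy with mouse 10, and 1440 and 1664 without it. Because all 50 mice share an estimate of the spread, leaving it out also moves counts among the LPS mice.

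Irradiation changed 444 genes at 150 cGy (3.58% of those tested; 147 rose and 297 fell) and 1983 genes at 600 cGy (16%; 800 rose and 1183 fell). Both comparisons use the same 6 unirradiated LPS mice. The median difference over all genes was -0.00 at 150 cGy and 0.02 at 600 cGy, and the list medians below are read against those values. The count at 150 cGy fell to 213 without mouse 9 at 0 cGy, to 217 without mouse 8 at 0 cGy, and to 228 and 251 without mice 9 and 8 at 150 cGy, and to 298 without the 3 mice whose Alb was 10 or more. At 600 cGy the count ran from 1456 to 2105 on leaving out each mouse.

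Several p53 targets were among the genes with the largest rise at each dose. Of 33 measured genes that p53 is known to induce, 10 rose and 2 fell at 150 cGy, against 1.19% and 2.40% of all genes, with a list median of 0.23. At 600 cGy 14 rose and 3 fell, against 6.46% and 9.55% of all genes, with a median of 0.50. The mean level of the list relative to the 0 cGy mean lay between -0.06 and 0.03 in the 0 cGy mice, between 0.21 and 0.44 at 150 cGy and between 0.49 and 0.66 at 600 cGy, so the 3 groups did not overlap.

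Phlda3, which restrains Akt signalling, stood at 6.33 to 7.03 (median 6.60) in the 6 mice at 0 cGy, at 8.17, 8.26, 8.25, 8.54 and 8.42 in the 5 mice at 150 cGy, and at 8.77 to 9.39 (median 9.10) in the 6 at 600 cGy. No group overlapped another. It rose by 1.69 ± 0.25 at 150 cGy (adjusted p = 1.39e-05) and by 2.44 ± 0.23 at 600 cGy (adjusted p = 3.27e-10). Ccng1, which encodes cyclin G1, was 7.72 to 8.39 (median 8.11) at 0 cGy, 9.17, 9.78, 9.53, 9.81 and 9.78 at 150 cGy and 9.75 to 10.05 (median 9.90) at 600 cGy. Both irradiated groups lay above the unirradiated one and overlapped each other, with differences of 1.53 ± 0.24 (adjusted p = 7.03e-05) and 1.81 ± 0.23 (adjusted p = 2.84e-07). The cell cycle inhibitor Cdkn1a (p21) was already at 8.19 to 9.36 (median 8.42) at 0 cGy, was 10.14, 9.96, 9.88, 9.25 and 9.79 at 150 cGy, and was 10.25 to 11 (median 10.35) at 600 cGy. Mouse 8 at 150 cGy thus fell within the 0 cGy range. Cdkn1a rose by 1.18 ± 0.32 at 150 cGy (adjusted p = 0.026) and by 1.81 ± 0.30 at 600 cGy (adjusted p = 3.25e-05). The call of Cdkn1a at 150 cGy was lost (adjusted p 0.0513 to 0.0629) on leaving out any of mice 3, 4, 6 and 9 at 150 cGy or 1, 3 and 9 at 0 cGy, and on leaving out the mice of high Alb (adjusted p = 0.139).

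**Figure D1:**
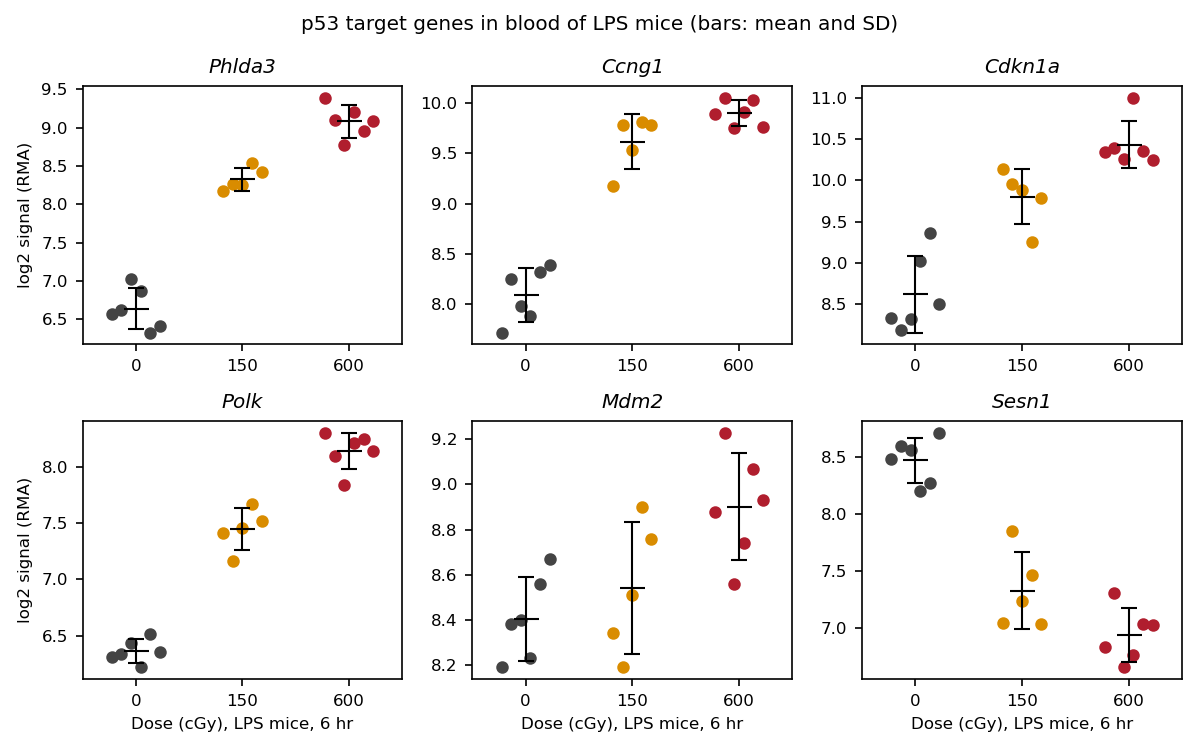
Log2 signal (vertical axis) of 6 p53 target genes in each LPS mouse at 0, 150 and 600 cGy (horizontal axis); points are mice, bars the mean and SD. Phlda3 and Polk separate all 3 groups, Mdm2 overlaps between all of them, and Sesn1 falls.

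Polk, a translesion DNA polymerase, separated the groups as fully. It was 6.22 to 6.52 (median 6.35) at 0 cGy, 7.41, 7.16, 7.46, 7.67 and 7.52 at 150 cGy, and 7.84 to 8.30 (median 8.17) at 600 cGy, with rises of 1.08 ± 0.17 (adjusted p = 8.39e-05) and 1.77 ± 0.17 (adjusted p = 2.65e-10). Zmat3, an RNA-binding protein gene, was 5.45 to 5.96 (median 5.59) at 0 cGy, 6.61, 6.48, 6.59, 6.64 and 6.48 at 150 cGy and 6.94 to 7.29 (median 7.14) at 600 cGy. Its groups did not overlap, and it rose by 0.90 ± 0.17 (adjusted p = 0.000759) and 1.46 ± 0.16 (adjusted p = 9.24e-09). Of list members that act in apoptosis, the death receptor gene Fas rose by 0.90 (adjusted p = 0.00643) and 0.66 (adjusted p = 0.0124), and Pmaip1 (Noxa) by 1.09 (adjusted p = 0.0144) and 1.07 (adjusted p = 0.00252). Bbc3 (Puma) stood at 0.45 above 0 cGy at 150 cGy (adjusted p = 0.165) and rose by 1.01 ± 0.17 at 600 cGy (adjusted p = 4.15e-05). Pmaip1 at 150 cGy lost its call (adjusted p 0.0527 to 0.0622) without mouse 8 or 9 at 150 cGy or mouse 8 at 0 cGy.

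Among repair genes that p53 induces, Ercc5, the XPG endonuclease of nucleotide excision repair, was 0.30 above 0 cGy at 150 cGy (adjusted p = 0.493) and rose by 1.21 ± 0.19 at 600 cGy (adjusted p = 1.11e-05). The alkyl transferase gene Mgmt rose by 0.70 at 600 cGy (adjusted p = 0.000344). Members of the list did not all rise. Mdm2, the ubiquitin ligase that degrades p53, was 8.19 to 8.67 (median 8.39) at 0 cGy, 8.34, 8.19, 8.51, 8.90 and 8.76 at 150 cGy and 8.56 to 9.23 (median 8.90) at 600 cGy. The 3 groups overlapped, with differences of 0.14 ± 0.20 (adjusted p = 0.84) and 0.50 ± 0.20 (adjusted p = 0.0784). Sesn1, a stress sensor that restrains mTORC1, fell at both doses. Its level was 8.20 to 8.71 (median 8.52) at 0 cGy, 7.05, 7.85, 7.24, 7.47 and 7.04 at 150 cGy, and 6.66 to 7.31 (median 6.94) at 600 cGy. Both irradiated groups lay below every 0 cGy mouse, with differences of -1.14 ± 0.18 (adjusted p = 6.94e-05) and -1.52 ± 0.17 (adjusted p = 2.21e-08).

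Other genes with the largest rises included Glipr1, a secreted protein gene known to be induced by p53. It was 7.36 to 7.89 (median 7.83) at 0 cGy, 8.95, 8.88, 9.15, 9.47 and 9.46 at 150 cGy, and 9.33 to 9.95 (median 9.78) at 600 cGy. Both irradiated groups lay above the 0 cGy mice, by 1.48 ± 0.20 (adjusted p = 2.6e-06) and 2.05 ± 0.19 (adjusted p = 1.84e-10). The noncoding RNA gene Pvt1, next to Myc, rose by 1.51 ± 0.22 (adjusted p = 1.41e-05) and 1.58 ± 0.21 (adjusted p = 5.96e-07). The thiamine transporter gene Slc19a2 rose by 1.11 ± 0.23 (adjusted p = 0.00288) and 1.74 ± 0.22 (adjusted p = 1.54e-07). Dcxr, a carbonyl reductase gene, rose by 1.80 ± 0.22 at 600 cGy (adjusted p = 8.91e-08). Fap, a membrane serine protease gene, was 4.46 to 4.86 (median 4.66) at 0 cGy, 5.68, 5.41, 5.89, 6.36 and 6.27 at 150 cGy and 5.52 to 6.56 (median 6.04) at 600 cGy. Its irradiated groups lay above every 0 cGy mouse, by 1.26 ± 0.16 (adjusted p = 9.21e-07) and 1.35 ± 0.15 (adjusted p = 1.42e-08).

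B lineage genes were among the largest falls. Of 25 measured B cell genes, 11 fell at 150 cGy and 17 at 600 cGy and none rose, where 2.40% and 9.55% of all genes fell. The list medians were -0.87 and -1.57. The mean level of the list relative to the 0 cGy mean ran from -0.29 to 0.23 at 0 cGy, from -1.28 to -0.69 at 150 cGy and from -1.74 to -1.06 at 600 cGy. The count at 150 cGy was 7 without mouse 9 at 150 cGy.

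The genes with the octamer, the binding motif of the transcription factors Oct-1 and Oct-2, are shown because the B cell list fell together. Pou2af1 encodes a coactivator of these factors. The motif was searched as ATTTGCAT, on both strands, from 250 bases before to 50 bases after each transcription start in the RefSeq promoters of mouse GRCm38.p6. It was present in 1.74% of 32851 promoters and in at least 1 promoter of 1.97% of genes, and in 2 of the 21 B cell list genes that have a promoter in that table, Vpreb3 and Blnk, or 9.52%. Capitals mark the motif in the 150 bases that end just before each start, written 5′ to 3′ on the strand of the gene. The Vpreb3 stretch is chr10:75948150-75948299 on the plus strand and the Blnk stretch is chr19:40994222-40994371 on the minus strand.
Vpreb3: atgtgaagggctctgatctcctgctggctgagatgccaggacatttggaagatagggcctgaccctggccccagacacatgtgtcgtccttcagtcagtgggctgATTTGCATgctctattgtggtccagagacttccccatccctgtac
Blnk: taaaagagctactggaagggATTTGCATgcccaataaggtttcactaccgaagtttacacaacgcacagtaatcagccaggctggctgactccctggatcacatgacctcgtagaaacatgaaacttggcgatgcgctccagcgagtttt
Vpreb3, which is expressed as the B cell receptor is assembled, was 7.57 to 8.57 (median 8.10) at 0 cGy, 5.38, 5.73, 5.13, 5.37 and 5.60 at 150 cGy and 5.05 to 6.03 (median 5.27) at 600 cGy. Its irradiated groups lay together, far below the 0 cGy mice, by -2.64 ± 0.34 (adjusted p = 1.24e-06) and -2.68 ± 0.32 (adjusted p = 6.83e-08). Blnk, the adaptor that links the receptor to downstream kinases, was 8.19 to 9.23 (median 8.72) at 0 cGy, 6.90, 7.82, 7.64, 7.02 and 6.77 at 150 cGy and 5.76 to 7.65 (median 6.27) at 600 cGy. It fell by 1.48 at 150 cGy (adjusted p = 0.0223) and by 2.30 at 600 cGy (adjusted p = 1.66e-05), with no irradiated mouse in the 0 cGy range. Its call at 150 cGy was lost without mouse 3, 8 or 9 at 150 cGy or mouse 8 or 9 at 0 cGy (adjusted p 0.0508 to 0.0752), and without the mice of high Alb (adjusted p = 0.0672). The motif matches describe these windows only.

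The receptor chains themselves fell at both doses. Cd79a was 9.66 to 10.21 (median 9.88) at 0 cGy, 7.55, 8.34, 8.33, 7.34 and 7.03 at 150 cGy and 5.81 to 7.43 (median 6.59) at 600 cGy, a difference of -2.19 ± 0.46 (adjusted p = 0.00299) and of -3.26 ± 0.43 (adjusted p = 5.28e-07). Its partner Cd79b was 9.45 to 10.34 (median 9.92), then 7.35, 8.79, 7.98, 7.03 and 7.08, then 5.78 to 7.35 (median 6.34), a difference of -2.23 ± 0.44 (adjusted p = 0.00143) and of -3.38 ± 0.42 (adjusted p = 1.02e-07). For both chains every irradiated mouse lay below every unirradiated one, while the 2 irradiated groups overlapped. Ms4a1 (CD20), a marker of mature B cells, was 10.50 to 11.47 (median 10.88) at 0 cGy, 9.03, 10.28, 10.23, 9.69 and 9.45 at 150 cGy and 8.29 to 9.88 (median 8.56) at 600 cGy. Its difference of -1.18 ± 0.42 at 150 cGy did not pass (adjusted p = 0.113), although no 150 cGy mouse reached the 0 cGy range, and its difference of -2.15 ± 0.40 at 600 cGy did (adjusted p = 0.000153).

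Spib, an Ets transcription factor, was 8.73 to 9.52 (median 9.08) at 0 cGy, 7.02, 8.26, 7.33, 7.37 and 7.05 at 150 cGy and 5.67 to 7.06 (median 5.87) at 600 cGy, with differences of -1.70 ± 0.36 (adjusted p = 0.00427) and -3.02 ± 0.35 (adjusted p = 2.25e-08). Bach2, a repressor in B and T cells, was 7.31 to 8.25 (median 7.77) at 0 cGy and lay at 5.86, 6.20, 5.40, 5.99 and 5.66 at 150 cGy and at 5.81 to 6.33 (median 5.99) at 600 cGy. Both irradiated groups lay below the 0 cGy mice, by differences of -1.97 ± 0.25 (adjusted p = 1.24e-06) and -1.78 ± 0.24 (adjusted p = 7.72e-07). The inhibitory coreceptor gene Cd72 differed by -1.82 ± 0.31 (adjusted p = 0.000142) and -2.62 ± 0.29 (adjusted p = 1.31e-08), and Pou2af1 differed by -1.65 ± 0.41 (adjusted p = 0.0174) and -2.55 ± 0.40 (adjusted p = 1.01e-05). Pou2af1 lost its call at 150 cGy without mouse 8 or mouse 9 at 150 cGy (adjusted p 0.0516 and 0.0592).

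Rag1 and Myb, both of them highest in mouse 8 among the 0 cGy mice, also fell. Rag1, of the recombinase that joins receptor gene segments, was 4.53 to 9.90 (median 6.76) at 0 cGy, 4.81, 2.97, 2.98, 3.12 and 2.93 at 150 cGy and 2.75 to 3.03 (median 2.91) at 600 cGy. One irradiated mouse, mouse 3 at 150 cGy, lay within the 0 cGy range, and the differences were -3.62 ± 0.91 (adjusted p = 0.0162) and -4.07 ± 0.86 (adjusted p = 0.000664). The call of Rag1 at 150 cGy was lost without mouse 8 or mouse 9 at 0 cGy (adjusted p 0.0564 and 0.0673). Myb, a progenitor transcription factor, was 7.54 to 10.10 (median 8.23) at 0 cGy, 6.80, 6.67, 6.30, 6.74 and 6.38 at 150 cGy and 5.00 to 5.72 (median 5.42) at 600 cGy. Its 3 groups did not overlap, and it differed by -1.99 ± 0.40 (adjusted p = 0.00197) and -3.16 ± 0.38 (adjusted p = 6.83e-08). Against untreated mice at 0 cGy, Rag1 was 2.94 ± 0.86 higher under LPS (adjusted p = 0.00839) and Myb 1.89 ± 0.38 higher (adjusted p = 0.000144).

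**Figure D2:**
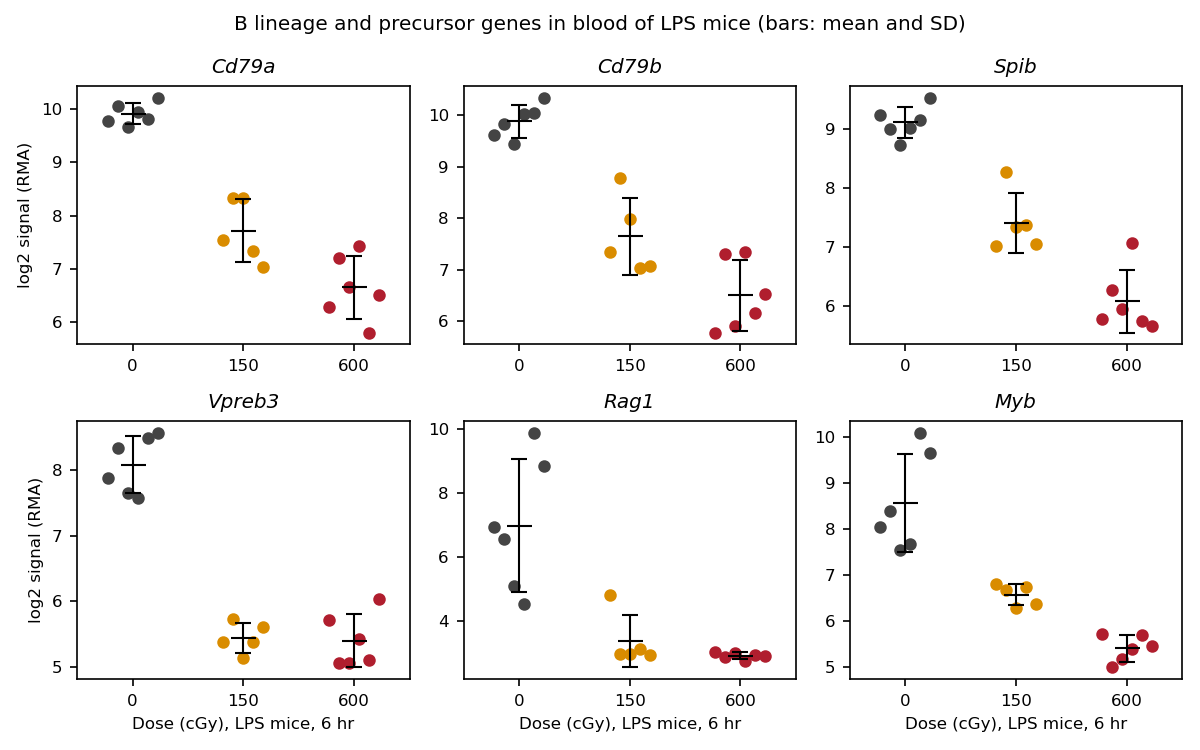
Log2 signal (vertical axis) of 6 B lineage and precursor genes in each LPS mouse at 0, 150 and 600 cGy (horizontal axis); points are mice, bars the mean and SD. Cd79a, Cd79b and Spib stand lower at 600 than at 150 cGy on average, whereas Vpreb3 and Rag1 lie near their lowest level at both doses.

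All 8 measured genes of MHC class II antigen presentation fell at 600 cGy, where 9.55% of all genes fell, with a median of -1.17. At 150 cGy the median was -0.83 and 1 of 8, H2-DMa, fell (-0.86, adjusted p = 0.0273). That count ran from 0 to 2 on leaving out a mouse (mice 3, 8 and 9 at 150 cGy and 6, 8 and 9 at 0 cGy moved it) and was 6 without the untreated mouse 10. H2-Ab1, a class II chain, was 9.19 to 9.81 (median 9.67) at 0 cGy, 8.41, 9.24, 8.94, 8.06 and 8.37 at 150 cGy and 7.34 to 9.49 (median 7.98) at 600 cGy. The groups overlapped, with differences of -1.01 ± 0.33 (adjusted p = 0.0772) and -1.50 ± 0.32 (adjusted p = 0.000607). Irf8, a transcription factor of B cells, monocytes and dendritic cells, fell by 1.68 ± 0.25 at 600 cGy (adjusted p = 3.83e-06).

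Fewer T cell genes passed. None of 22 was called by limma at 150 cGy (3 at an unadjusted p under 0.05; median -0.20) and 4 fell at 600 cGy (Ccr7, Cd27, Cd3g and Thy1; median -0.30). That is 4 of 22 where 9.55% of all genes fell, and the count was between 1 and 5 on leaving out a mouse (mouse 3 at 600 cGy and mouse 8 at 0 cGy moved it). Thy1 was 6.96 to 10.12 (median 7.30) at 0 cGy, with mouse 8 as its highest, 7.46, 7.17, 6.42, 6.48 and 7.22 at 150 cGy and 5.72 to 6.88 (median 6.10) at 600 cGy. It fell by 1.70 ± 0.38 at 600 cGy (adjusted p = 0.00138), where no mouse reached the 0 cGy range. Cd3e, a chain of the T cell receptor complex, differed by -0.32 ± 0.23 at 150 cGy (adjusted p = 0.535) and by -0.44 ± 0.21 at 600 cGy (adjusted p = 0.169).

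Cytotoxic cell genes were higher after irradiation. Over all genes the median difference was -0.003 at 150 cGy and 0.015 at 600 cGy. All 17 measured NK cell and cytotoxic genes were higher on average at 150 cGy than at 0 cGy, and 16 of 17 at 600 cGy, with medians of 0.93 and 0.57. Few passed the test: 4 rose at 150 cGy (Fasl, Klra8, Klrd1 and Nkg7) and 3 at 600 cGy (Fasl, Klrk1 and Nkg7), where 1.19% and 6.46% of all genes rose. Klrd1 (CD94), an NK cell receptor chain, was 6.08 to 8.44 (median 6.95) at 0 cGy, 7.89, 9.01, 8.13, 8.59 and 10.09 at 150 cGy and 6.53 to 9.09 (median 8.06) at 600 cGy. The groups overlapped, and Klrd1 rose by 1.68 ± 0.42 at 150 cGy (adjusted p = 0.016) and differed by 0.97 ± 0.40 at 600 cGy (adjusted p = 0.0955). Nkg7, a cytotoxic granule protein gene, was 6.96 to 9.55 (median 8.21) at 0 cGy, 9.14, 9.41, 8.60, 9.11 and 10.09 at 150 cGy and 8.73 to 9.93 (median 9.35) at 600 cGy. It too overlapped between groups, and rose by 1.05 ± 0.28 (adjusted p = 0.0263) and 1.13 ± 0.27 (adjusted p = 0.00221). The level of the whole list ran from -0.85 to 1.04 among the unirradiated mice alone. The count at 150 cGy lay between 0 and 9 on leaving out mouse 4 or 9 at 150 cGy or mouse 3, 8 or 9 at 0 cGy, and was 9 without the mice of high Alb. At 600 cGy it lay between 2 and 8 (mouse 3 at 600 cGy and mouse 3 at 0 cGy moved it). The 150 cGy calls of Klrd1 (without mouse 9 of either group, adjusted p 0.0584 and 0.0921) and of Nkg7 (without mouse 4 or 9 at 150 cGy or 8 or 9 at 0 cGy, adjusted p 0.0581 to 0.127) were lost in the same way. That of Fasl was lost without mouse 4, 8 or 9 at 150 cGy or 1, 6, 7, 8 or 9 at 0 cGy (adjusted p 0.059 to 0.19). In a fit to the 17 LPS mice alone, Fasl (adjusted p = 0.115) and Nkg7 (0.076) lost their calls at 150 cGy. Fasl (0.0506) and Klrk1 (0.0706) lost theirs at 600 cGy in that fit.

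Genes of mature neutrophils were already high in unirradiated LPS blood, and few passed the test for dose. Of 18 measured, 1 rose at 150 cGy (Trem1; median 0.34) and 2 at 600 cGy (Ccrl2 and Trem1; median 0.15), where 1.19% and 6.46% of all genes rose. Trem1, a receptor that amplifies inflammation, lost its call at 150 cGy without mouse 8 or 9 of either group (adjusted p 0.0548 to 0.0954), which left a count of 0. At 600 cGy it lost its call without mouse 1, 2, 5 or 6 at 600 cGy or 1, 7, 8 or 9 at 0 cGy (adjusted p 0.0578 to 0.132), which left 1, and also under quantile normalisation (0.087) and without the mice of high Alb (0.0797). Lcn2, an iron-sequestering granule protein gene, was 12.73 to 13.25 (median 13.11) at 0 cGy, 13.34, 13.09, 13.16, 13.47 and 13.31 at 150 cGy and 13.06 to 13.28 (median 13.14) at 600 cGy. The groups overlapped, and its differences were 0.24 ± 0.39 (adjusted p = 0.856) and 0.13 ± 0.37 (adjusted p = 0.877).

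Genes of the granules that form in immature neutrophils fell at the higher dose. Of 12 measured, none was called by limma at 150 cGy (3 at an unadjusted p under 0.05; median -0.17) and 7 fell at 600 cGy (Camp, Ctsg, Ltf, Mpo, Ms4a3, Ngp and Serpinb1a; median -0.90), where 9.55% of all genes fell. The list level was -0.28 to 0.22 at 0 cGy, -0.44 to -0.02 at 150 cGy and -1.23 to -0.40 at 600 cGy. Ltf, the lactoferrin gene of secondary granules, was 9.20 to 10.01 (median 9.72) at 0 cGy, 8.76, 9.01, 8.32, 9.25 and 9.02 at 150 cGy and 7.01 to 8.40 (median 7.72) at 600 cGy. Its difference of -1.96 ± 0.24 at 600 cGy passed (adjusted p = 1.12e-07) and its difference of -0.79 ± 0.25 at 150 cGy did not (adjusted p = 0.0709). Ctsg, the cathepsin G gene of primary granules, was 5.07 to 6.01 (median 5.69) at 0 cGy, 4.88, 5.64, 5.52, 5.72 and 5.32 at 150 cGy and 3.95 to 4.95 (median 4.37) at 600 cGy. No 600 cGy mouse reached the 0 cGy range, and Ctsg fell by 1.22 ± 0.15 (adjusted p = 8.06e-08), after a difference of -0.20 ± 0.16 at 150 cGy (adjusted p = 0.594). Camp, the cathelicidin gene, differed by -1.40 ± 0.28 at 600 cGy (adjusted p = 0.000338) and Mpo, the myeloperoxidase gene, by -1.23 ± 0.21 (adjusted p = 3.91e-05).

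Of 13 eosinophil and basophil genes, 3 fell at each dose (Epx, Mcpt8 and Prg2), where 2.40% and 9.55% of all genes fell, while the list medians were 0.21 and 0.39. Prg2, which encodes the eosinophil major basic protein, was 5.71 to 8.14 (median 7.15) at 0 cGy, 4.50, 4.90, 4.01, 3.97 and 4.0 at 150 cGy and 4.06 to 4.77 (median 4.38) at 600 cGy. Every irradiated mouse lay below every unirradiated one, by -2.74 ± 0.23 (adjusted p = 1.95e-11) and -2.62 ± 0.22 (adjusted p = 1.81e-11) on average. The basophil protease gene Mcpt8 was 6.76 to 7.53 (median 7.07) at 0 cGy, 5.63, 5.63, 5.67, 5.98 and 5.40 at 150 cGy and 5.52 to 5.90 (median 5.76) at 600 cGy, again without overlap, a difference of -1.48 ± 0.18 (adjusted p = 2.68e-07) and -1.39 ± 0.17 (adjusted p = 6.83e-08). Epx, the eosinophil peroxidase gene, was 4.42 to 6.04 (median 4.71) at 0 cGy, 4.54, 4.50, 3.97, 3.85 and 3.72 at 150 cGy and 3.91 to 4.25 (median 4.04) at 600 cGy. It differed by -0.76 ± 0.20 (adjusted p = 0.021) and -0.80 ± 0.19 (adjusted p = 0.00198), and lost its call at 150 cGy without mouse 8 or 9 at 150 cGy or mouse 8 at 0 cGy (adjusted p 0.0688 to 0.0925), and in a fit to the 17 LPS mice alone (adjusted p = 0.0535). The eosinophil surface lectin gene Siglecf rose by 0.95 at 600 cGy (adjusted p = 0.0218).

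Genes induced by type I interferon had been raised by LPS throughout, with all 27 measured higher in LPS than in untreated mice at 0 cGy (median 1.84), where 10.2% of all genes were. Irradiation added to a part of them. None was called by limma at 150 cGy (9 at an unadjusted p under 0.05; median 0.13) and 9 rose at 600 cGy (Ddx60, Dhx58, Ifih1, Ifit1, Ifit2, Ifit3, Mx1, Mx2 and Parp14; median 0.26), where 6.46% of all genes rose. A pair of them is shown because both promoters carry the interferon response element, searched on both strands as GAAA, any 2 bases and GAAA again in the same RefSeq windows. That motif was in 3.44% of all 32851 promoters and in at least 1 promoter of 3.99% of genes, in 11 of the 19 list genes with a promoter in the table (57.9%), and in 4 of the 5 of those that rose at 600 cGy. Capitals mark the motif in the 150 bases before the start, which lie at chr19:34640739-34640888 for Ifit1, where it matches on the reverse strand, and at chr8:61927937-61928086 for Ddx60, both genes on the plus strand.
Ifit1: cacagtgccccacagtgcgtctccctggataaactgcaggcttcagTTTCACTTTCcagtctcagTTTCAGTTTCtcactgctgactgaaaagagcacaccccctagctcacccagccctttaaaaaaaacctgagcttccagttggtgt
Ddx60: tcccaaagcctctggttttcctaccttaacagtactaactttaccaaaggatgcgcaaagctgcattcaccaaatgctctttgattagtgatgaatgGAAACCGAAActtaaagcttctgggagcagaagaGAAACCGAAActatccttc
Ifit1, which binds viral RNA caps, was 11.76 to 12.01 (median 11.81) at 0 cGy, 12.18, 12.63, 12.08, 12.38 and 12.42 at 150 cGy and 12.36 to 12.64 (median 12.54) at 600 cGy. Every irradiated mouse lay above every unirradiated one, by 0.48 ± 0.20 (adjusted p = 0.186) and 0.66 ± 0.19 (adjusted p = 0.0112) on average. Under quantile normalisation the 600 cGy call of Ifit1 was lost (adjusted p = 0.0577). That of Ifit3 was lost without mouse 1, 2 or 5 at 600 cGy or 1 or 7 at 0 cGy (adjusted p 0.0564 to 0.0806), under quantile normalisation (0.0531) and without the mice of high Alb (0.0619). Ddx60, a helicase of antiviral sensing, was 6.45 to 7.44 (median 7.02) at 0 cGy, 7.50, 7.11, 7.81, 8.97 and 8.53 at 150 cGy and 7.96 to 8.74 (median 8.61) at 600 cGy, a difference of 0.97 ± 0.29 (adjusted p = 0.0514) and a rise of 1.42 ± 0.28 (adjusted p = 0.000288).

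Mx1, an antiviral GTPase gene, was 6.52 to 8.88 (median 7.10) at 0 cGy, with mouse 8 as its highest, 7.21, 8.80, 7.57, 7.74 and 8.06 at 150 cGy and 8.99 to 9.34 (median 9.13) at 600 cGy. Its 600 cGy mice lay above all others, with a rise of 1.75 ± 0.32 (adjusted p = 9.44e-05), and its difference at 150 cGy was 0.48 ± 0.33 (adjusted p = 0.526). Irf1, a transcription factor raised by interferon gamma, fell by 0.51 ± 0.15 at 600 cGy (adjusted p = 0.0142, or 0.0515 without mouse 8 at 0 cGy), the only call among 10 genes led by the interferon-inducible GTPases, where 9.55% of all genes fell.

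LPS alone had raised 21 of 30 cytokine and chemokine genes, where 10.2% of all genes rose, and some were higher still after irradiation. Of these 30, 4 rose at 150 cGy (Ccl3, Ccl4, Ebi3 and Il1a; median 0.45) and 7 at 600 cGy (these 4 with Csf3, Cxcl10 and Tnf; median 0.35), where 1.19% and 6.46% of all genes rose, and none fell. The count at 600 cGy was 4 without mouse 4 or mouse 6 at 600 cGy. Csf3 at 600 cGy lost its call without mouse 1, 3, 4 or 5 at 600 cGy or 1, 3 or 6 at 0 cGy (adjusted p 0.0515 to 0.153) and in a fit to the 17 LPS mice alone (0.188). Ebi3 at 150 cGy lost its call without mouse 6, 8 or 9 at 150 cGy or 1, 8 or 9 at 0 cGy (adjusted p 0.0562 to 0.117), under quantile normalisation (0.0584) and without the mice of high Alb (0.0717). Ccl3, a chemokine that draws monocytes and T cells, was 9.10 to 9.81 (median 9.50) at 0 cGy, 10.03, 10.51, 10.61, 10.72 and 10.77 at 150 cGy and 9.39 to 10.78 (median 10.08) at 600 cGy. It rose by 1.05 ± 0.21 at 150 cGy (adjusted p = 0.00251), with no overlap, and by 0.67 ± 0.20 at 600 cGy (adjusted p = 0.0186), where the call was lost without mouse 4 or 6 at 600 cGy or mouse 8 at 0 cGy (adjusted p 0.0589 to 0.0762) and with array weights (adjusted p = 0.0791). Its relative Ccl4 was 10.03 to 10.57 (median 10.45) at 0 cGy, 11.21, 11.73, 11.08, 11.71 and 11.65 at 150 cGy and 10.38 to 12.11 (median 11.35) at 600 cGy, with rises of 1.10 ± 0.19 (adjusted p = 0.000287) and 0.95 ± 0.18 (adjusted p = 0.0002). Il1a, which encodes interleukin 1 alpha, was 5.93 to 7.41 (median 6.53) at 0 cGy, 7.50, 7.73, 8.44, 6.99 and 7.56 at 150 cGy and 6.70 to 8.51 (median 7.46) at 600 cGy. Its groups overlapped, and it rose by 1.07 ± 0.25 (adjusted p = 0.00825) and 1.0 ± 0.23 (adjusted p = 0.00204). In a fit to the 17 LPS mice alone Il1a at 150 cGy had an adjusted p of 0.057, and without the mice of high Alb 0.0665.

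Other classic LPS-induced cytokines differed less. Tnf differed by 0.45 ± 0.14 at 150 cGy (adjusted p = 0.0549) and rose by 0.39 ± 0.13 at 600 cGy (adjusted p = 0.0325). Il1b differed by 0.76 ± 0.29 (adjusted p = 0.145) and 0.38 ± 0.28 (adjusted p = 0.418). Cxcl10, an interferon-induced chemokine, was 9.11 to 11.36 (median 10.35) at 0 cGy, 9.68, 10.58, 10.30, 10.88 and 10.50 at 150 cGy and 10.62 to 11.37 (median 11.16) at 600 cGy. The groups overlapped, with a difference of 0.02 ± 0.25 (adjusted p = 0.985) and a rise of 0.73 ± 0.24 (adjusted p = 0.0286). The 600 cGy call of Cxcl10 was lost without mouse 1, 4 or 6 at 600 cGy or mouse 3, 6 or 7 at 0 cGy (adjusted p 0.0583 to 0.14), and that of Tnf without mouse 2, 3, 5 or 6 at 600 cGy or mouse 1 or 8 at 0 cGy (adjusted p 0.0514 to 0.117).

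Of 22 genes of LPS and pattern recognition, 4 rose at 150 cGy (Clec7a, Nlrp3, Tlr2 and Tlr6) and 4 at 600 cGy (Casp1, Myd88, Nlrp3 and Tlr2), where 1.19% and 6.46% of all genes rose, with medians of 0.33 and 0.26. The count fell as low as 1 at 150 cGy (mice 4, 8 and 9 at 150 cGy and 1, 7 and 8 at 0 cGy moved it) and as low as 2 at 600 cGy (mice 4 and 6 at 600 cGy and 9 at 0 cGy moved it). Tlr2, the receptor for bacterial lipoproteins, was 8.47 to 8.96 (median 8.66) at 0 cGy, 9.36, 9.01, 9.51, 10.19 and 9.79 at 150 cGy and 9.12 to 9.69 (median 9.29) at 600 cGy. Every irradiated mouse lay above the 0 cGy range, by 0.85 ± 0.21 (adjusted p = 0.0123, or 0.0686 without mouse 8 at 150 cGy) and 0.64 ± 0.20 (adjusted p = 0.0185, or 0.0536 without mouse 6 at 600 cGy). Tlr4, the LPS receptor itself, differed by 0.81 ± 0.27 at 150 cGy (adjusted p = 0.0773) and 0.24 ± 0.25 at 600 cGy (adjusted p = 0.601). Of 19 genes of NF-kB feedback, Zc3h12a, an RNase that degrades cytokine transcripts, was the 1 that rose at each dose, where 1.19% and 6.46% of all genes rose, by 0.53 (adjusted p = 0.0144, or 0.0555 without mouse 9 at 150 cGy) and 0.48 (adjusted p = 0.00482).

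Platelet genes rose at 600 cGy, 12 of 17 of them (median 0.73), where 6.46% of all genes rose, and none of 17 was called by limma at 150 cGy (4 at an unadjusted p under 0.05; median 0.09). Their mean level was -0.19 to 0.14 at 0 cGy, -0.10 to 0.39 at 150 cGy and 0.48 to 0.85 at 600 cGy. Treml1, a receptor stored in platelet granules, was 10.17 to 10.75 (median 10.51) at 0 cGy, 10.79, 10.46, 10.73, 10.66 and 10.84 at 150 cGy and 11.31 to 11.45 (median 11.38) at 600 cGy. The 600 cGy mice lay above all others, with a rise of 0.90 ± 0.17 (adjusted p = 0.000119). Pf4 was 12.64 to 12.93 (median 12.91) at 0 cGy, 13.23, 13.20, 13.09, 12.86 and 13.08 at 150 cGy and 13.23 to 13.47 (median 13.29) at 600 cGy, a difference of 0.24 ± 0.11 (adjusted p = 0.238) and a rise of 0.49 ± 0.10 (adjusted p = 0.000703).

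Of 31 cell cycle genes, 8 fell at 150 cGy and 21 at 600 cGy, where 2.40% and 9.55% of all genes fell, with medians of -0.49 and -0.62. Cdt1, which licenses DNA replication, was 8.59 to 9.60 (median 9.11) at 0 cGy, 7.95, 9.40, 8.18, 8.75 and 8.45 at 150 cGy and 7.19 to 7.99 (median 7.66) at 600 cGy. It fell by 1.51 ± 0.23 at 600 cGy (adjusted p = 4.7e-06), where no mouse reached the 0 cGy range, and differed by -0.57 ± 0.24 at 150 cGy (adjusted p = 0.188). Top2a, topoisomerase 2 alpha of dividing cells, was 6.50 to 7.21 (median 6.80) at 0 cGy, 5.99, 5.96, 6.00, 5.95 and 6.17 at 150 cGy and 5.39 to 6.10 (median 5.83) at 600 cGy, with differences of -0.85 ± 0.20 (adjusted p = 0.0108) and -1.05 ± 0.19 (adjusted p = 0.000104). For Top2a at 150 cGy the mean of its probe sets gave -0.39 (adjusted p = 0.0836). The list count at 150 cGy was 4 at its lowest (without mouse 3 at 150 cGy or mouse 8 or 9 at 0 cGy) and 3 without the mice of high Alb, and at 600 cGy it was 12 without mouse 8 at 0 cGy.

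Of 24 erythroid genes, 7 fell at 150 cGy (Car1, Cpox, Kel, Rhag, Rhd, Slc4a1 and Urod) and 6 at 600 cGy (Cpox, Kel, Ppox, Rhag, Rhd and Urod), where 2.40% and 9.55% of all genes fell, while the transcription factor genes Gata1 and Tal1, shared by erythroid and megakaryocytic cells, rose at 600 cGy. Rhag, which encodes a red cell membrane glycoprotein, was 8.63 to 9.34 (median 8.95) at 0 cGy, 7.93, 7.44, 7.99, 8.30 and 8.36 at 150 cGy and 7.53 to 8.72 (median 7.79) at 600 cGy, with differences of -0.96 (adjusted p = 0.0223) and -0.97 (adjusted p = 0.00335). Gata1 was 7.88 to 8.30 (median 8.18) at 0 cGy, 8.41, 8.16, 8.50, 8.41 and 8.22 at 150 cGy and 8.53 to 9.06 (median 8.80) at 600 cGy, and rose by 0.68 ± 0.12 at 600 cGy (adjusted p = 9.63e-05), without overlap. The count at 150 cGy was 1 without mouse 4 at 150 cGy, was also moved by leaving out mouse 1, 8 or 9 at 0 cGy, and was 3 without the mice of high Alb. Without those mice the call of Rhag at 150 cGy was lost (adjusted p = 0.089).

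**Figure D3:**
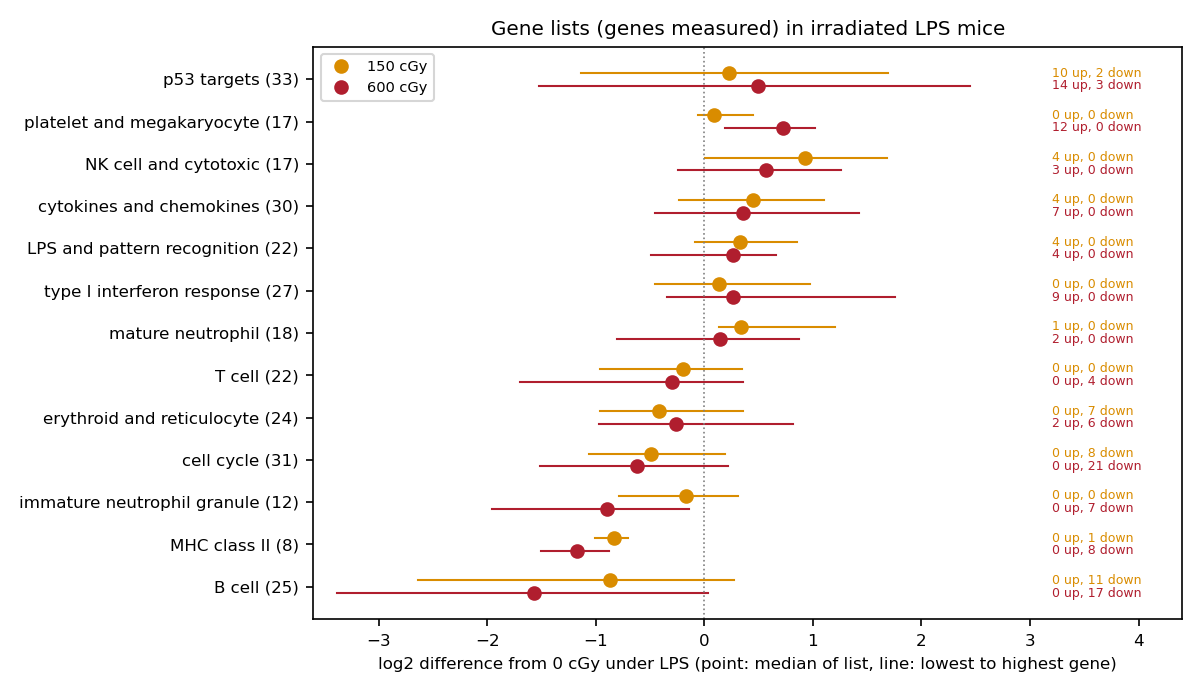
Log2 difference from 0 cGy under LPS (horizontal axis) for 13 gene lists, with the number of genes measured in brackets; points are list medians, lines run from the lowest to the highest gene, and the counts of genes that rose or fell stand at the right. The B cell list has the lowest median at both doses (-0.87 at 150 cGy and -1.57 at 600 cGy), and the platelet list has a median of 0.09 at 150 cGy and 0.73 at 600 cGy.

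The 2 doses were compared with each other directly. At 600 cGy, 216 genes were higher and 74 lower than at 150 cGy (2.34% of genes tested). The count was 56 without mouse 4 at 150 cGy, 178 and 124 without mice 6 and 8 at 150 cGy, 160, 137 and 175 without mice 1, 3 and 5 at 600 cGy, and 184 without the mice of high Alb. Of the p53 targets, Aen, Ei24, Ercc5 and Polk were higher at 600 cGy, where 1.74% of all genes were. Ei24 exceeded 150 cGy by 0.77 ± 0.18 (adjusted p = 0.0142, or 0.0635 without mouse 4 at 150 cGy) and Polk by 0.70 ± 0.17 (adjusted p = 0.0232, and 0.0551 to 0.104 without mouse 4 at 150 cGy or mouse 1 at 600 cGy). The p53 count was 1 without mouse 4 at 150 cGy, 2 without mouse 1 at 600 cGy and 10 without the untreated mouse 10. Without the mice of high Alb, Aen (adjusted p = 0.0822), Ercc5 (0.0943) and Polk (0.0874) lost their calls. With probe sets averaged, Aen differed by 0.32 (adjusted p = 0.154). Phlda3 differed by 0.75 ± 0.25 (adjusted p = 0.0933).

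Granule genes differed between the doses. Camp, Ctsg, Ltf and Ms4a3 of 12 were lower at 600 than at 150 cGy, where 0.597% of all genes were, and 2 remained without mouse 4 at 150 cGy. Ctsg differed by -1.02 ± 0.16 (adjusted p = 0.000543) and Ltf by -1.17 ± 0.25 (adjusted p = 0.00932). Of platelet genes, Alox12, F2rl2 and Treml1 were higher at 600 cGy, where 1.74% of all genes were, though their count ran from 0 to 5 on leaving out a mouse (mice 3, 4, 6 and 8 at 150 cGy and 3, 4 and 5 at 600 cGy moved it). Alox12 (adjusted p = 0.0677), F2rl2 (0.0541) and Treml1 (0.0757) each lost the call without the mice of high Alb. Of the B cell genes only Spib passed in this fit (-1.32 ± 0.36, adjusted p = 0.0388, and 0.067 to 0.174 without any of mice 4, 6 and 8 at 150 cGy or 1, 3, 5 and 6 at 600 cGy), and 7 passed without the untreated mouse 10. Spib was also not called without the mice of high Alb (adjusted p = 0.0697). Mx1 was 1.27 ± 0.33 higher (adjusted p = 0.0294), or 0.97 (adjusted p = 0.217) without the mice of high Alb.

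Genes outside these lists differed as well. Ly6g6c, a surface protein gene of the Ly6 family, was 7.11 to 7.97 (median 7.69) at 0 cGy, 8.12, 7.20, 7.90, 7.51 and 8.07 at 150 cGy and 8.98 to 9.29 (median 9.06) at 600 cGy. It was 1.34 ± 0.27 higher at 600 than at 150 cGy (adjusted p = 0.00646). Lpin1, a phosphatidate phosphatase and coregulator of lipid genes, was 6.03 to 6.45 (median 6.20) at 0 cGy, 6.54, 6.58, 6.53, 6.48 and 6.73 at 150 cGy and 7.29 to 7.79 (median 7.74) at 600 cGy, a difference of 1.07 ± 0.19 (adjusted p = 0.00189) without overlap. Atp8a1, a phospholipid flippase gene, was 1.04 ± 0.18 higher (adjusted p = 0.00189). Ighv14-2, an immunoglobulin heavy chain segment, was 9.11 to 9.78 (median 9.32) at 0 cGy, 8.23, 8.74, 7.75, 8.69 and 8.02 at 150 cGy and 5.84 to 6.83 (median 6.35) at 600 cGy. It differed from 150 cGy by -1.94 ± 0.51 (adjusted p = 0.0294), a call lost without mouse 4 or 8 at 150 cGy or mouse 3 or 5 at 600 cGy (adjusted p 0.064 to 0.105), and without the mice of high Alb (0.0678).

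The effect of irradiation under LPS was then set against its effect in untreated mice of the same set, as the difference of the differences. LPS alone, without irradiation, had changed 3252 genes (26.2%; 1263 higher and 1989 lower than in untreated mice), or 3421 without the untreated mouse 10. The effect of 150 cGy under LPS differed from that in untreated mice for 16 genes (0.129%; 2 up and 14 down), or for 117 without mouse 10. The effect of 600 cGy differed for 390 genes (3.15%; 73 up and 317 down), or for 523 without mouse 10, of which 351 were among the 390. The count of 390 was 243 without LPS mouse 8 at 0 cGy. As the unirradiated LPS mice had also moved away from the untreated ones, the levels are given beside each difference.

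In untreated mice 17 of 18 mature neutrophil genes rose at 600 cGy (median 1.73), where 5.51% of all genes rose, and under LPS 2 of 18 rose. The difference passed for 14 of 18, all of them negative (median -1.54), where 2.56% of all genes were down, and for 17 of 18 without mouse 10 (median -1.90). Lcn2 was 7.19 to 12.04 (median 8.16) in the 6 untreated mice at 0 cGy, with mouse 10 as its highest, and 11.61 to 12.41 (median 12.02) in the 5 at 600 cGy, below the 12.73 to 13.25 of the unirradiated LPS mice. It rose by 3.39 ± 0.39 in untreated mice (adjusted p = 7.89e-08), and the difference of its 600 cGy effects was -3.26 ± 0.54 (adjusted p = 0.000599), or -3.95 ± 0.29 without mouse 10 (adjusted p = 1.75e-13). The decoy interleukin 1 receptor gene Il1r2 gave -2.62 ± 0.52 (adjusted p = 0.00268) and the granule protein gene Lrg1 -2.76 ± 0.53 (adjusted p = 0.00211). At 150 cGy none of the 18 was called by limma with mouse 10 (10 at an unadjusted p under 0.05; median -0.89), and 10 were without it (median -1.20).

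Of 12 immature granule genes, 3 rose at 600 cGy in untreated mice, where 5.51% of all genes rose, and 7 fell under LPS, where 9.55% fell. The difference passed for 6 (Camp, Ctsg, Ltf, Mpo, Ngp and Prtn3; median -1.24), where 2.56% of all genes were down. Ltf was 4.12 to 4.61 (median 4.35) in untreated mice at 0 cGy and 4.38 to 6.21 (median 4.89) at 600 cGy, against 9.20 to 10.01 (median 9.72) and 7.01 to 8.40 (median 7.72) under LPS. Its effects differed by -2.61 ± 0.35 (adjusted p = 1.31e-05). The call of Camp was lost without mouse 3 or 4 at 600 cGy or mouse 3 or 8 at 0 cGy (adjusted p 0.0538 to 0.0697), and that of Mpo without mouse 2 at 600 cGy or mouse 8 at 0 cGy (adjusted p 0.0524 and 0.0532).

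Prg2 and Mcpt8 fell after irradiation under LPS but not, by the test, in untreated blood. Prg2 was 3.26 to 3.99 (median 3.77) in untreated mice at 0 cGy, 3.51 to 3.85 (median 3.72) at 150 cGy and 3.50 to 4.19 (median 3.83) at 600 cGy. Its untreated level was thus near the low end of the signal, as the median over all genes was 6.14 to 6.24 in the untreated 0 cGy mice. A fall in untreated blood could hardly have been seen, so the differences of effects for Prg2 do not show a response to radiation that needs LPS. LPS alone raised it by 3.33 ± 0.22 (adjusted p = 1.28e-16), and its effects differed by -2.77 ± 0.32 at 150 cGy (adjusted p = 4.19e-07) and by -2.83 ± 0.32 at 600 cGy (adjusted p = 2.25e-07). Mcpt8 differed by -1.36 ± 0.24 (adjusted p = 0.00307) and -1.13 ± 0.24 (adjusted p = 0.00511). Both genes also differed from their effects under GCSF, with Prg2 at -2.43 and -2.29 and Mcpt8 at -1.46 and -1.43 for 150 and 600 cGy. Another pair whose effects differed at both doses was Reln, an extracellular matrix glycoprotein gene, raised by LPS alone by 1.53 ± 0.18 (adjusted p = 3.24e-09), and Eif2ak1, the heme-regulated eIF2 alpha kinase of red cell precursors, raised by 1.14 ± 0.17 (adjusted p = 6.33e-07). Under LPS Reln differed by -1.26 ± 0.18 at 150 cGy and -1.33 ± 0.18 at 600 cGy, and Eif2ak1 by -1.20 ± 0.18 and -0.86 ± 0.17. Under quantile normalisation the differences of Eif2ak1 from untreated mice were not called (adjusted p 0.0509 at 150 cGy and 0.0583 at 600 cGy).

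p53 targets as a list rose in both settings, with 21 of 33 up at 600 cGy in untreated mice (median 0.84) against 14 under LPS (median 0.50). Of all genes, 5.51% rose in untreated mice and 6.46% under LPS. The difference of effects was negative for 3 of them (Ckap2, Sesn1 and Xpc), where 2.56% of all genes were down, and for 8 without mouse 10 (Cdkn1a, Ckap2, Gtse1, Psrc1, Sesn1, Sesn2, Trp53inp1 and Xpc). Cdkn1a was 7.03 to 10.47 (median 7.42) in untreated mice at 0 cGy and 10.15 to 10.97 (median 10.92) at 600 cGy, so that the 600 cGy levels of untreated and LPS mice overlapped. The difference of effects was -1.08 ± 0.44 with mouse 10 (adjusted p = 0.185) and -1.61 ± 0.26 without it (adjusted p = 3.44e-05). LPS alone raised Cdkn1a by 0.81 ± 0.30 (adjusted p = 0.0429, and lost without LPS mouse 7, 8 or 9 at 0 cGy), or by 1.34 ± 0.18 without mouse 10 (adjusted p = 1.28e-07). For Phlda3 the effects differed by 0.46 ± 0.34 (adjusted p = 0.507) and by 0.07 ± 0.22 without mouse 10 (adjusted p = 0.906).

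**Figure D4:**
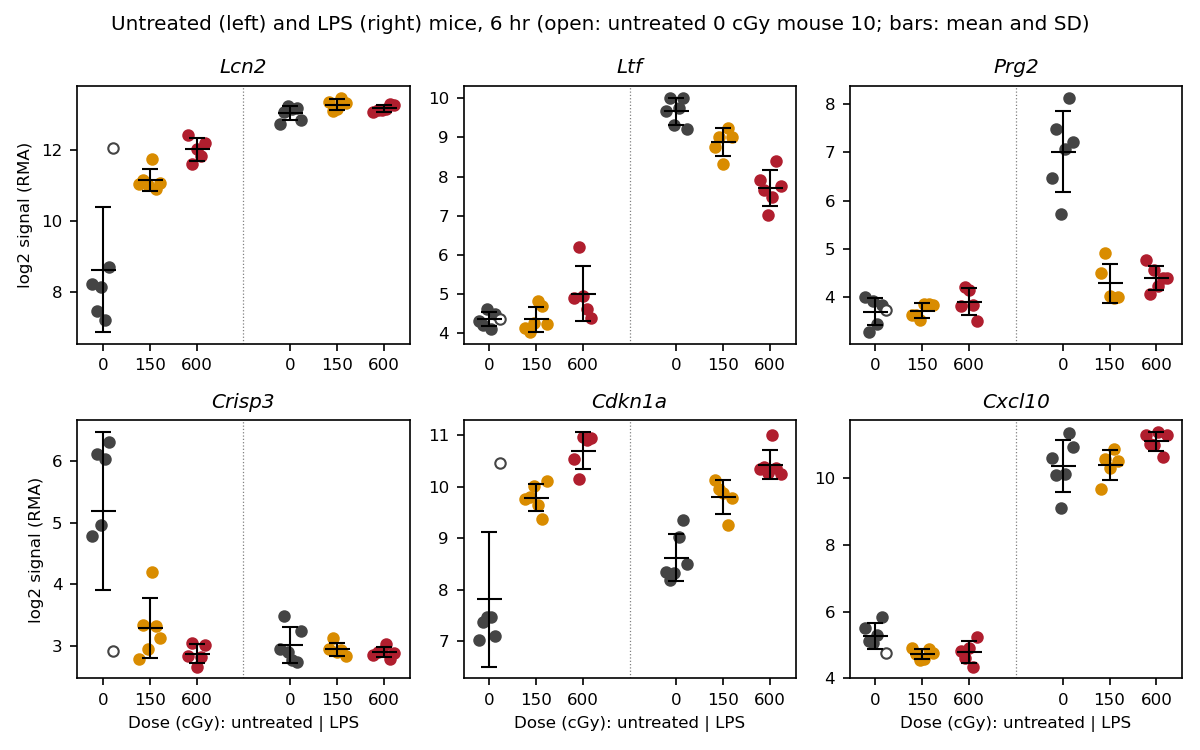
Log2 signal (vertical axis) of 6 genes in untreated mice (left) and LPS mice (right) at 0, 150 and 600 cGy (horizontal axis); points are mice, bars the mean and SD, and the open point is the untreated 0 cGy mouse 10. Lcn2 climbs with dose in untreated mice to below its level in unirradiated LPS mice, and Prg2 is high in unirradiated LPS mice alone.

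Some genes that irradiation lowered in untreated blood were already low under LPS. Crisp3, a secreted protein gene, was 2.92 to 6.32 (median 5.50) in untreated mice at 0 cGy and 2.66 to 3.04 (median 2.83) at 600 cGy, and lay between 2.74 and 3.48 in all 17 LPS mice. Its effects at 600 cGy differed by 2.20 ± 0.44 (adjusted p = 0.00269), or 2.66 ± 0.32 without mouse 10 (adjusted p = 1.76e-07). The mature B cell receptors Fcer2a (CD23) and Cr2 (CD21) also differed, where 0.589% of all genes were up. Fcer2a was 6.45 to 10.38 (median 10.01) in untreated mice at 0 cGy and 6.21 to 7.50 (median 6.54) at 600 cGy, against 7.07 to 7.45 (median 7.24) and 6.40 to 7.05 (median 6.91) under LPS, a difference of 2.19 ± 0.51 (adjusted p = 0.0103). Cr2 differed by 1.68 ± 0.41 (adjusted p = 0.0143). Cd79a differed by -1.37 ± 0.63 (adjusted p = 0.255), or -0.67 ± 0.42 without mouse 10 (adjusted p = 0.45). Cxcl10 differed by 1.21 ± 0.35 (adjusted p = 0.0409), and that call was lost without mouse 1, 2, 3, 4 or 6 at 600 cGy or mouse 3, 6 or 7 at 0 cGy (adjusted p 0.0515 to 0.0771) and under quantile normalisation (adjusted p = 0.103).

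Against GCSF, the effect of 150 cGy differed for 18 genes (0.145%) and that of 600 cGy for 140 (1.13%; 54 up and 86 down), or 24 and 239 without mouse 10, which is in none of these groups but enters the shared spread. B cell genes fell under GCSF too, 24 of 25 at 600 cGy with a median of -2.24, where 14.1% of all genes fell, and the difference of effects was positive for 3 of them, where 0.436% of all genes were up. Fcer2a gave 3.35 and Crisp3 2.31 at 600 cGy. Mature neutrophil genes rose at 600 cGy under GCSF, 15 of 18 with a median of 1.10, where 10.9% of all genes rose, and the difference passed for 1 (Mmp9), where 0.694% were down, or 8 without mouse 10. p53 targets rose under GCSF too, 21 of 33 with a median of 0.72, where 10.9% of all genes rose. The difference of effects was negative for Psrc1 and Xpc, where 0.694% of all genes were down. The call of Psrc1 was lost without LPS mouse 1 at 0 cGy (adjusted p = 0.0503).

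The comparison of 600 with 0 cGy under LPS at 6 hr was also available in other mice, the sex and treatment set, with 3 females and 5 males at 0 cGy and 5 and 5 at 600 cGy. No array is shared with the 17 mice above, the fit was separate, and differences between the 2 sets were not tested. The contrast there was the mean of the female and the male difference, whereas the 17 mice all had high Xist and low Eif2s3y. Tested alone, females gave 1391 called genes and males 3213. In the sex and treatment set 3526 genes were called (28.5%; 1732 up and 1794 down), from 1835 without female mouse 5 to 4850 without female mouse 2, both at 0 cGy. Its median over all genes was 0.12, so its list medians are read against that. Of the 800 genes that rose in the small set, 293 also rose there, which is 36.6% of the smaller list and 16.9% of the larger, and 39 fell. Of the 1183 that fell, 506 also fell, or 42.8% and 28.2%, and 9 rose.

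The list median of p53 targets lay above that of all genes in the small set and in females and males of the other set. In the sex and treatment set, both sexes together, 13 of 33 targets rose and 2 fell, where 14% and 14.5% of all genes did. The list medians were 0.62 in females and 0.29 in males, against 0.08 and 0.14 over all genes. Phlda3 rose by 2.50 ± 0.23 in females (adjusted p = 2.09e-17) and by 0.76 ± 0.20 in males (adjusted p = 0.00381), against 2.44 in the small set. Ccng1 rose by 2.76 ± 0.28 (adjusted p = 5.23e-15) and 1.22 ± 0.25 (adjusted p = 0.000144). The test of the sex difference passed for 7 targets, all with the larger rise in females (Ccng1, Ei24, Phlda3, Polk, Psrc1, Trp53inp1 and Zmat3), where 4.82% of all genes did.

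Lineage genes repeated in part. B cell genes fell for 12 of 25 (median -0.71), and immature granule genes for 9 of 12 (median -1.45), where 14.5% of all genes fell. Prg2 fell by 3.35 ± 0.53 in females (adjusted p = 2.65e-07) and differed by -0.53 ± 0.46 in males (adjusted p = 0.363), and the sex difference passed for Epx, Mcpt8 and Prg2, where 2.15% of all genes were lower in females. Platelet genes rose in females, 10 of 17 with a median of 0.95, where 4.84% of all genes rose. In males 3 of them fell and none rose (median -0.42), where 13.6% and 12.3% of all genes did. The sex difference passed for 12 of 17, where the effect was higher in females for 4.82% of all genes and lower for 2.15%. Other lists went differently in the 2 sets. Mature neutrophil genes fell for 15 of 18 in the sex and treatment set (median -1.32), against 2 of 18 that rose in the small set (median 0.15). Type I interferon genes fell for 10 of 27 and rose for 2, Mx1 and Mx2 (median -0.46), against 9 that rose and none that fell in the small set.

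**Figure D5:**
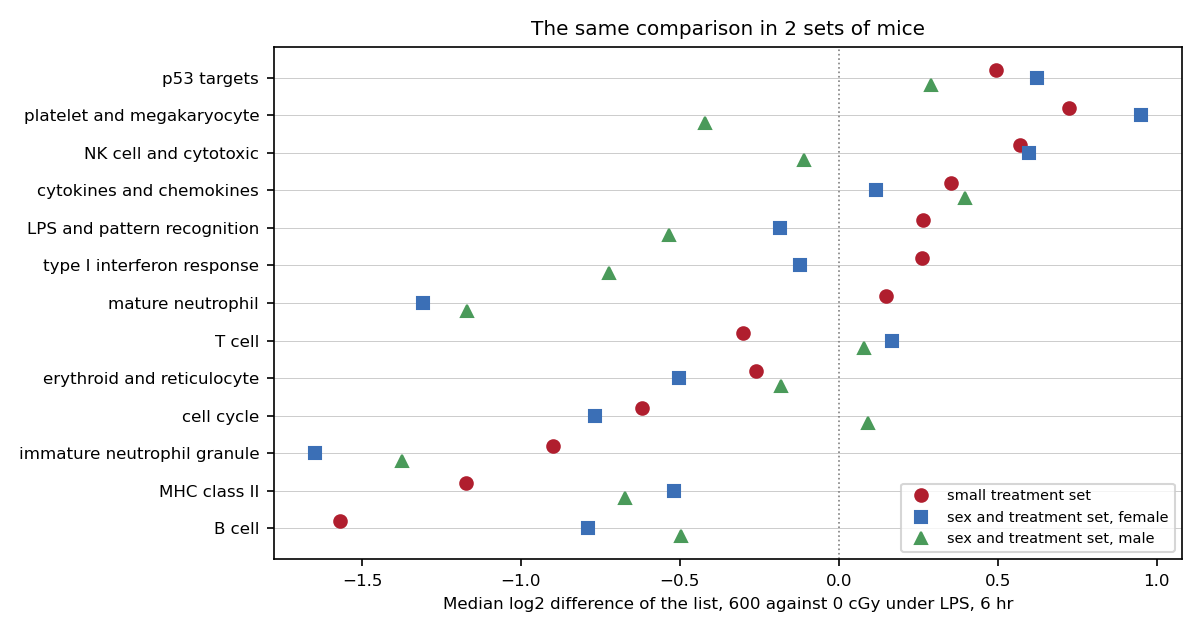
Median log2 difference of 13 gene lists between 600 and 0 cGy under LPS at 6 hr (horizontal axis) in the small treatment set (circles) and in females (squares) and males (triangles) of the sex and treatment set. The p53 list lies above 0 and the B cell and immature granule lists below 0 in all 3, whereas mature neutrophil genes lie at 0.15 in the small set and at -1.31 and -1.17 in the other mice.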

How the data were processed

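The deposited values are log2 signals made by the authors with RMA in the affy package, per the submitters' processing notes, for 22690 probe sets on 536 arrays; the version and settings are not given in the sources used here. Probe sets with 1 gene symbol (20380) gave 12393 genes, each by its brightest probe set over all arrays (4956 genes had several). Group means were fitted over the 50 arrays of the small set (9 groups, 41 residual degrees of freedom) and separately over the 226 arrays of the sex and treatment set with limma 3.58.1 in R 4.3.3, with moderated variances (eBayes) and Benjamini-Hochberg adjusted p-values at 0.05 over the 12393 genes. The number of arrays limits the precision. Genes named were the largest called differences whose groups do not overlap, for interactions the largest called, the list members of smallest p, and a set of known genes; a few members of short counts were named after their values were seen. The members and the 29 gene lists were chosen with earlier results of these data known. On simulated data with 12393 genes, the fit recovered 87 of 100 genes changed by 1 on the log2 scale and 97 of 100 changed by 2 for 150 against 0 cGy, and 89 and 99 for 600 against 0 cGy. It also called 15 and 14 unchanged genes in these 2 comparisons. The simulated noise was normal, with the spread of each gene, and independent between genes and mice. It held no mice that stand apart, so these rates need not hold for the real data. Leaving out mice of high Alb, and the untreated mouse 10, were alternatives added after the data were seen. Python 3.11.15 with pandas 2.3.3, numpy 2.4.6 and matplotlib 3.10.9 handled tables and plots.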

Additional observations from a re-analysis of the deposited data

Results flagged for a closer look

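In groups of 5 or 6 mice, 1 mouse stood far from the others of its group for 4 of 87 list levels and 5 of 108 gene levels. A mouse was flagged by Dixon's rule, where its gap to the next mouse was a large part of the range of the group. For normally distributed levels the rule is meant to flag about 1 in 20 groups by chance, a rate not measured here. The list levels, relative to the 0 cGy LPS mean, were the T cell list in 0 cGy mouse 8 at 0.89, the erythroid list in 150 cGy mouse 4 at -0.78, the hepatocyte list in 600 cGy mouse 2 at 4.70 and the immediate early list in 600 cGy mouse 3 at -0.04. The gene levels were Cdkn1a at 11 in 600 cGy mouse 4, Glipr1 at 9.33 in 600 cGy mouse 3, Spib at 8.26 and Rag1 at 4.81 in 150 cGy mice 4 and 3, and the heat shock gene Hspa1a at 3.65 in 600 cGy mouse 6.

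The effect of irradiation under LPS differed, by the test of the difference itself, from that in untreated mice for 16 genes at 150 cGy and 390 at 600 cGy, and from that under GCSF for 18 and 140. Against untreated mice at 600 cGy the difference was -1.13 for Sesn1, 0.97 for Glipr1, -1.72 for Spib, -2.25 for Myb, 2.19 for Fcer2a, -3.26 for Lcn2, -1.07 for S100a8, -2.61 for Ltf, -1.26 for Ctsg, 1.21 for Cxcl10, -2.83 for Prg2, -1.13 for Mcpt8, 1.03 for Fap and 2.20 for Crisp3. At 150 cGy it was -2.77 for Prg2, -1.36 for Mcpt8 and 1.18 for Fap. Against GCSF at 600 cGy it was 3.35 for Fcer2a, -1.21 for Ctsg, -2.29 for Prg2, -1.43 for Mcpt8, 1.0 for Fap and 2.31 for Crisp3, and at 150 cGy -2.43 for Prg2, -1.46 for Mcpt8, 1.49 for Fap and 2.08 for Crisp3. Without the untreated mouse 10 the difference at 600 cGy from untreated mice was 0.80 for Glipr1 (limma adjusted p = 0.0627) and -1.22 for Spib (adjusted p = 0.057), so both lost their call. Spib also lost it on leaving out any of 10 of 12 LPS mice (adjusted p 0.0529 to 0.0813), and Glipr1 any of 8 (0.0511 to 0.072). Crisp3 against GCSF at 150 cGy lost its call without any of 7 of 11 mice (0.0516 to 0.0718).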

How the results depend on the processing

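Counts called are for 150 and 600 against 0 cGy, 600 against 150 cGy, and the effects under LPS minus those in untreated or GCSF mice; for each value below the cause was not tested. With only the groups compared in the fit, 600 against 150 cGy gave 530 genes, and with the 17 LPS mice alone 150 against 0 cGy gave 692 and 600 against 150 cGy 559. With the replicate block, 150 against 0 cGy gave 708, the differences from untreated mice 63 and 648, and that from GCSF at 600 cGy 221. Same-numbered LPS mice did not deviate together on average (mean correlation 0.004 over 10 pairs, from -0.295 to 0.213). So few pairs cannot exclude that mice were handled by number. Array weights gave 936, 859 for 600 against 150 cGy, 73 and 834 against untreated mice, and 29 and 436 against GCSF. The difference from GCSF at 150 cGy was 7 with dim genes left out, 10 with median centring, 10 with a trended prior and 7 without the mice of high Alb, where 600 against 150 cGy gave 184. Without the untreated mouse 10 the difference from untreated mice at 150 cGy was 117 and that from GCSF at 600 cGy 239. Median centring moved LPS against untreated mice from 1263 up and 1989 down to 1696 and 1716. Leaving out 1 mouse at a time gave 213 to 513 genes for 150 against 0 cGy, 1456 to 2105 for 600 against 0 cGy, 56 to 319 for 600 against 150 cGy, 12 to 20 and 243 to 438 against untreated mice, 7 to 21 and 105 to 148 against GCSF, 2658 to 3513 for LPS alone and 1835 to 4850 in the sex and treatment set. For the genes named, 4979 values were the same in direction and call with 1 mouse left out, 355 lost and 14 gained a call; under other alternatives 4268 were the same, 124 lost and 110 gained one. All reversals were of values not called at 150 cGy: F2rl2 0.01 with the replicate block; Xist 0.06 with probe sets averaged, 0.02 with centring and 0.00 with array weights; Cxcl10 -0.05, Itga2b -0.03 and Alox12 -0.00 with quantile normalisation; Mx2 -0.02 and Itga2b -0.07 with array weights; Camp 0.10, Itga2b -0.16, Alox12 -0.06, Xist 0.04 and Ly6g6c -0.01 without the mice of high Alb. With 1 mouse left out, the lowest and highest values of genes with at least 1 reversal were -0.01 to 0.15 for Alox12, -0.03 to 1.22 for Cd5l, -0.12 to 0.03 for Crisp3, -0.23 to 0.22 for Cxcl10, -0.12 to 0.05 for F2rl2, -0.11 to 0.16 for Itga2b, -0.00 to 0.30 for Mmp9, -0.05 to 0.07 for Mx2 and -0.10 to 0.06 for Xist.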
